A study of Homo sapiens with 6 samples.

Results

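FGF receptors, their ligands, the FGF carrier FGFBP1 and the receptor adaptor FRS2 were followed across 3 oral squamous cell carcinoma (OSCC) lines. Cells with and without knockdown of the long noncoding RNA DLEU1 were compared. The set holds 10 genes, taken by name: FGFR1, FGFR2, FGFR3, FGFR4, FGFRL1, FGF2, FGF11, FGF18, FGFBP1 and FRS2. Every probe carrying one of these names in the scanner files was taken, which gave 16 probes of 60 bases with 1 spot each, among 50599 probes and 36337 gene names outside the control spots. HSC-3, KON and Ca9-22 are established OSCC lines. Each line was transfected either with siDLEU1-2, 1 small interfering RNA (siRNA) against DLEU1, or with a control siRNA (siCtrl), and RNA was taken 72 h later. One array was hybridized per line and siRNA, 6 in all, so the lines are the only replicates and p-values measure the spread between lines. The knockdown was transient and rests on a single siRNA, so effects of DLEU1 loss and other effects of that siRNA cannot be told apart.

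FGF ligands are secreted proteins that bind heparan sulfate and dimerize FGF receptors, which are tyrosine kinases. The activated receptor phosphorylates the membrane-anchored adaptor FRS2, which recruits GRB2, SOS and GAB proteins and so switches on the RAS, ERK and PI3K pathways. In stratified epithelium, FGFR2 and FGFR3 are the usual receptors, while FGFR1 and FGF2 are better known from mesenchymal cells, and FGFR1 and FGF signaling are much studied in squamous cell carcinoma.

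The siRNA strands are shown because they define the treated group, with the seed of the antisense strand, bases 2 to 8 from its 5′ end, in capitals. The probe stretches of FGF2, FGFR3 and FRS2 are the first 30 bases of the array probes behind the values given further on, and FGFR2 and FGFR4 probes are given whole. In the FGF2 pair, capitals mark the bases that both printed stretches hold, since the probes start 14 bases apart. In the FGFR4 probe, capitals mark the codons of the kinase DFG motif.
siDLEU1-2 sense: cagggguuaucgcacuuaagc
siDLEU1-2 antisense: uUAAGUGCgauaaccccugua
FGF2 A_33_P3379886: ttttatgtaaaaatGTAATTGCTTTTCATG
FGF2 A_33_P3419696: GTAATTGCTTTTCATGagtagtatgaataa
FGFR3 A_23_P212830: cactccccggcatgagactcagtgcagatg
FGFR3 A_23_P500501: tgctacctttcaaagcttggagggaagccg
FRS2 A_33_P3364112: cactttccccttattgctgaaagtagattg
FGFR2 A_24_P206624: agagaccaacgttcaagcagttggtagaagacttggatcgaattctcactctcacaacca
FGFR4 A_23_P92754: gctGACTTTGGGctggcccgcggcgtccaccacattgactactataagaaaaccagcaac

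In hg19, the build of the scanner files, the FGF2 probes lie at chr4:123819317-123819376 and chr4:123819331-123819390, on the plus strand. The FGFR3 probes lie at chr4:1809054-1809113 and chr4:1810363-1810422, also on the plus strand. The FRS2 probe is at chr12:69973500-69973559 and the FGFR4 probe at chr5:176523121-176523180, both on the plus strand. The FGFR2 probe shown is at chr10:123243217-123243276 on the minus strand. Exon and UTR positions were not assigned, since no hg19 annotation was used here. None of the 16 probes held GCACTTA, the DNA complement of the siRNA seed, against 138 of the 50599 probes, or 0.273%. This says only that those letters are not in these 60-base windows.

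DLEU1, the target, fell in every line. The log2 fold change was -4.10 for HSC-3, -3.63 for KON and -3.44 for Ca9-22 (mean -3.72 ± 0.34 SD, n = 3, limma adjusted p = 0.0227). Of the 8 squamous epithelial markers, 7 were well above background on all 6 arrays and TP63 on 5, and their summed signal was between 122182 and 278671 after siCtrl and between 88516 and 152988 after siDLEU1-2. The sum follows the brightest probes, and single markers went both ways, with mean log2 fold changes from -2.46 for TP63 to 1.09 for EPCAM. Of the 5 fibroblast markers, COL1A1 passed the background limit on each of the 6 arrays and the other four on none, and their summed signal was between 159 and 225 after siCtrl and between 409 and 559 after siDLEU1-2. PTPRC, the leukocyte marker, was well above background on 0 arrays, and PECAM1, the endothelial one, on 1. Each array came from a culture of 1 OSCC line, so these sums are marker expression in that line and not counts of stromal cells. The part of these marker shifts in the FGF results was not tested. Fewer cells in a given state and less RNA per cell cannot be told apart in bulk RNA.

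A level is the log2 of the processed signal minus the 75th percentile of the same array, and a log2 fold change is the level after siDLEU1-2 minus that after siCtrl in the same line. Of the 16 probes, 10 passed the filter, which asks that each line have 1 or more of its 2 arrays well above background, and they covered 8 of the 10 genes. No FGF2 or FGF18 probe passed. None of the 10 was called by limma, neither higher nor lower, against 3.98% and 4.52% of the 19956 probes that passed. At an unadjusted p below 0.05, limma gave 4 of the 10 and the methods' t-test gave 0, against 29.5% and 6.88% of all probes, so 4 of 10 is near the background. Over 2-fold in all 3 lines was 1 of the 10, the FGFR1 probe, against 4.38% of all probes. The median of the 10 mean log2 fold changes was -0.05, against 0.01 over all probes. In 6 of the 10, all lines went in 1 direction, as in 53.6% of all probes.

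**Figure D1:**
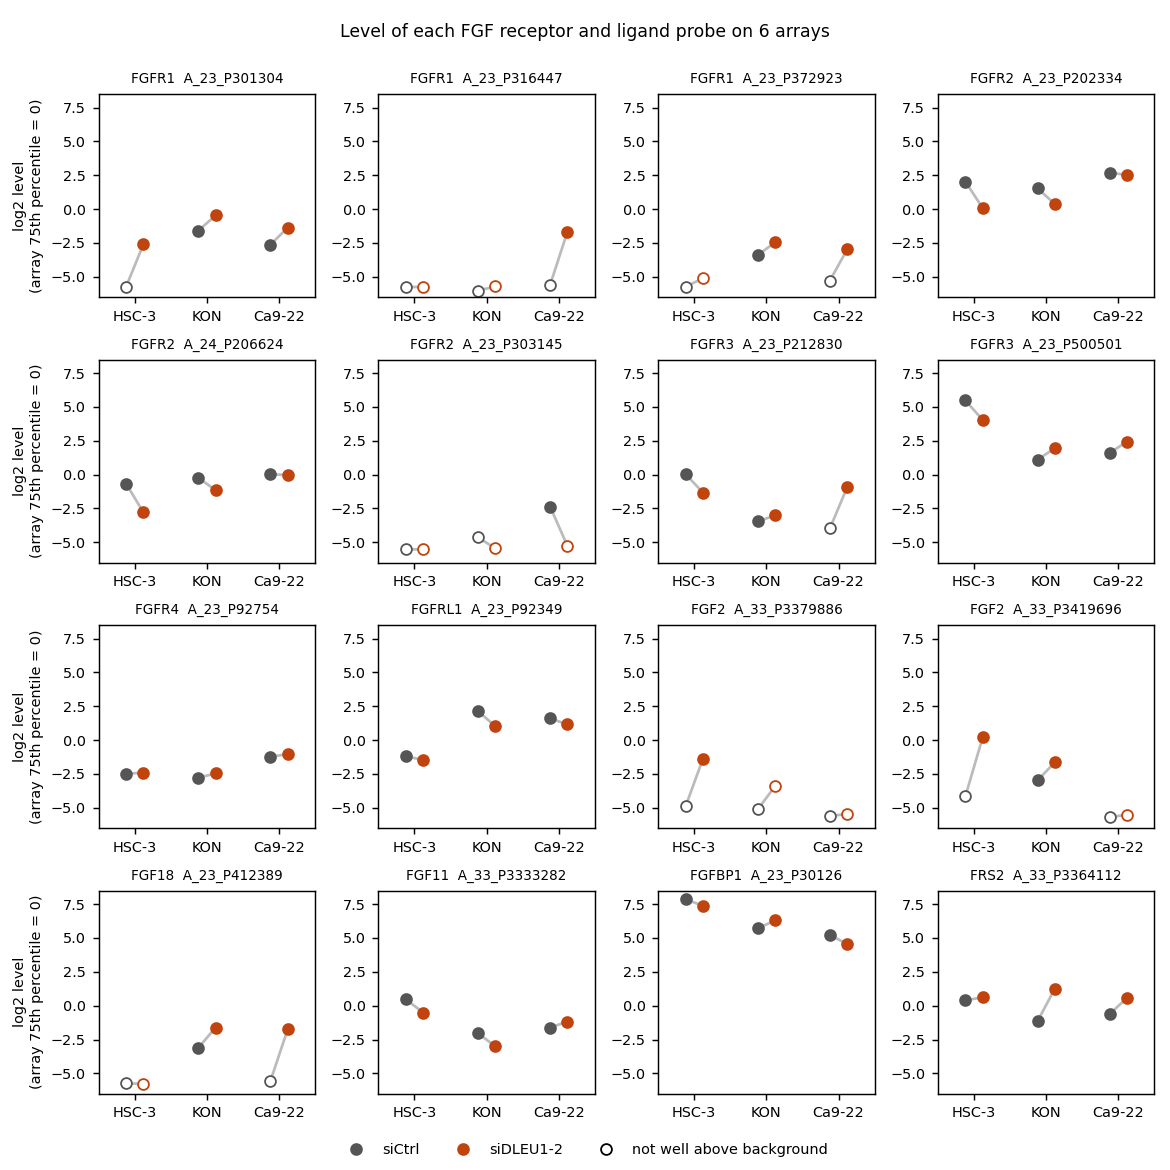
Level of each of the 16 probes in HSC-3, KON and Ca9-22 (x axis) after siCtrl (gray) and siDLEU1-2 (orange), as log2 signal relative to the array's 75th percentile (y axis). Each point is 1 array, lines join the arrays of 1 cell line, and open points were not well above background. Within HSC-3 the FGF2 probes are well above background after siDLEU1-2 only, the first FGFR1 probe is higher after siDLEU1-2 in each line, and the FGFR3 probes move down in HSC-3 and up in the other lines.

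FGFR1, a receptor tyrosine kinase with high affinity for FGF2, was higher after siDLEU1-2 in each line by its one probe that passed, A_23_P301304. Its signal was 4.06 with siCtrl against 33.0 with siDLEU1-2 in HSC-3, 84.6 against 176.6 in KON and 40.5 against 94.1 in Ca9-22. Every line was higher after siDLEU1-2, but the groups overlapped, since KON after siCtrl was above HSC-3 after siDLEU1-2. The log2 fold changes were 3.14, 1.13 and 1.27 (mean 1.85 ± 1.12 SD, n = 3, 95% interval 0.68 to 3.01, limma adjusted p = 0.0733). The siCtrl spot of HSC-3 was not well above background, so there FGFR1 was at least 1.97-fold higher, against the lowest signal that counts as well above background on that array. That bound is under 2-fold, so the count of 1 probe over 2-fold in all lines rests on a dim spot. Once dim values were set to that floor, the mean log2 fold change was 1.13 and limma's adjusted p was 0.0250. With normexp background correction they were 0.68 and 0.0248, and the folds of the lines were under 2-fold. In HSC-3 the probe passed the filter through the siDLEU1-2 array alone, and a filter asking for all 6 arrays leaves it out.

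The other FGFR1 probes did not pass. A_23_P316447 was well above background on 1 array, Ca9-22 after siDLEU1-2, where it was at least 3.41-fold higher than after siCtrl. A_23_P372923 was well above background on 3 arrays, both of KON and that of Ca9-22 after siDLEU1-2. Its log2 fold change was 0.94 in KON, and in Ca9-22 it was at least 1.37-fold higher. In HSC-3 neither of these probes was well above background on either array.

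FGFR2, the receptor for FGF7 and FGF10 on epithelial cells in its epithelial splice form, was lower after siDLEU1-2 in HSC-3 and KON by both probes that passed. The signal of A_23_P202334 was 891 with siCtrl against 211 with siDLEU1-2 in HSC-3, 740.0 against 318 in KON and 1639 against 1390 in Ca9-22. Its log2 fold changes were -1.96, -1.15 and -0.19 (mean -1.10 ± 0.89 SD, n = 3, limma adjusted p = 0.129). The groups overlapped, because Ca9-22 after siDLEU1-2 was brighter than HSC-3 and KON after siCtrl. The probe shown above, A_24_P206624, had signals of 137 against 29.1 in HSC-3, 219 against 110.5 in KON and 256 against 239 in Ca9-22. Its log2 fold changes were -2.12, -0.92 and -0.05 (mean -1.03 ± 1.04 SD, limma adjusted p = 0.187). The difference was largest in HSC-3 and near zero in Ca9-22 by both probes. The remaining FGFR2 probe, A_23_P303145, was well above background only in Ca9-22 after siCtrl, where it was at least 1.90-fold lower after siDLEU1-2.

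FGFR3, which restrains the growth of cartilage and is often mutated in urothelial carcinoma, was lower after siDLEU1-2 in HSC-3 and higher in KON and Ca9-22. The signal of A_23_P500501 was 9688 with siCtrl against 3301 with siDLEU1-2 in HSC-3, 554 against 939 in KON and 759 against 1325 in Ca9-22. HSC-3 stood far above the other lines on both arrays and was the only line with a lower value after siDLEU1-2. The log2 fold changes were -1.43, 0.83 and 0.85 (mean 0.08 ± 1.32 SD, 95% interval -1.26 to 1.43, limma adjusted p = 0.935). The probe A_23_P212830, whose sequence is also shown, had signals of 222.6 against 80.2 in HSC-3, 23.5 against 30.2 in KON and 16.0 against 127.6 in Ca9-22. Its log2 fold changes were -1.36, 0.43 and 3.04 (mean 0.71 ± 2.21 SD, limma adjusted p = 0.623). The siCtrl spot of Ca9-22 was not well above background, and the probe was at least 5.70-fold higher there. Both probes were over 1.5-fold lower in 1 line and over 1.5-fold higher in another, which held for 2.98% of all probes that passed. For A_23_P212830 the higher side was Ca9-22 alone, where it passed the filter through the siDLEU1-2 array alone. A filter asking for all 6 arrays leaves that probe out. No test of the opposite directions between lines was possible with 1 array for each siRNA.

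FGFR4, the FGF19 receptor of the liver, had the smallest SD over the lines among the 10 probes. Its signal was 38.7 against 38.1 in HSC-3, 37.2 against 44.5 in KON and 106.9 against 119.0 in Ca9-22. The log2 fold changes were 0.09, 0.33 and 0.21 (mean 0.21 ± 0.12 SD, 95% interval -0.15 to 0.57, limma adjusted p = 0.374). In HSC-3 the signal itself was slightly lower after siDLEU1-2, and its log2 fold change was positive after the array scaling. FGFRL1, a receptor-like protein without a kinase domain that can bind FGF ligands, had signals of 94.4 against 73.3 in HSC-3, 1148 against 495 in KON and 766 against 544 in Ca9-22. It was lower after siDLEU1-2 in each line, with log2 fold changes of -0.25, -1.14 and -0.44 (mean -0.61 ± 0.47 SD, limma adjusted p = 0.153). The groups overlapped, with HSC-3 far below the others.

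FGF2, basic FGF, a ligand without a classical signal peptide, had no probe that passed. Both probes were dim in Ca9-22 with either siRNA, and A_33_P3379886 was also dim in KON with either siRNA. The signal of A_33_P3419696 was 12.2 with siCtrl against 232.8 with siDLEU1-2 in HSC-3, 32.6 against 78.9 in KON and 4.90 against 5.35 in Ca9-22. In HSC-3 only the siDLEU1-2 spot was well above background, so FGF2 was at least 13.9-fold higher there. In KON both spots were well above background, and the log2 fold change was 1.35. The overlapping probe A_33_P3379886 was well above background on 1 array, that of HSC-3 after siDLEU1-2, where it was at least 4.59-fold higher. These are not independent readings, since the probes share bases.

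FGF18, a secreted ligand known from bone and lung development, was well above background in KON with both siRNAs and in Ca9-22 after siDLEU1-2. Its signal was 29.4 and 79.5 in KON, 5.25 and 72.0 in Ca9-22, and 4.09 and 3.67 in HSC-3. It was at least 3.22-fold higher after siDLEU1-2 in Ca9-22, and its log2 fold change in KON was 1.51. In HSC-3 neither array was well above background.

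FGF11, an intracellular FGF that does not act through FGF receptors, had signals of 302 against 140.4 in HSC-3, 62.5 against 30.5 in KON and 82.3 against 107.2 in Ca9-22. Its log2 fold changes were -0.99, -0.96 and 0.43 (mean -0.51 ± 0.81 SD, limma adjusted p = 0.375). FGFBP1, a secreted carrier that releases FGFs from the matrix, was the brightest of the probes by signal, which depends on the probe and ranks no gene. Its signal was 50325 against 33453 in HSC-3, 13451 against 19181 in KON and 9434 against 5705 in Ca9-22. The log2 fold changes were -0.47, 0.58 and -0.68 (mean -0.19 ± 0.68 SD, limma adjusted p = 0.707). For both genes 1 line went against the other two.

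FRS2, the adaptor that links receptors to RAS and PI3K, was the only probe whose groups did not overlap. Its signal was 285 against 309 in HSC-3, 115 against 587 in KON and 164 against 362 in Ca9-22. On the scaled levels, the highest control, HSC-3 at 0.39, was close to the lowest treated array, Ca9-22 at 0.57. The share of all probes that passed without overlap was not computed, so this does not set FRS2 apart. The log2 fold changes were 0.23, 2.42 and 1.19 (mean 1.28 ± 1.10 SD, n = 3, 95% interval 0.14 to 2.42, limma adjusted p = 0.137).

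**Figure D2:**
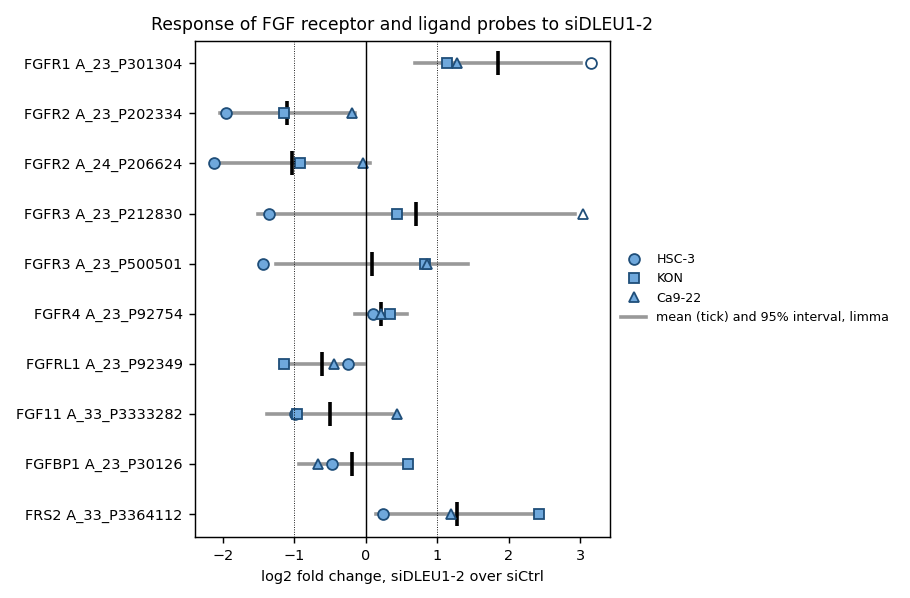
Log2 fold change of siDLEU1-2 over siCtrl (x axis) for the 10 probes that passed the filter (y axis). Symbols are the 3 cell lines, open where 1 of the 2 spots was not well above background, the tick is the mean and the gray bar limma's 95% interval, and dotted lines mark 2-fold. FGFR1 and FRS2 lie to the right of 0 and FGFR2 and FGFRL1 to the left in every line, while FGFR3, FGF11 and FGFBP1 lie on both sides.

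Several of the levels differed between the lines. The line contrasts come from the same fit with both siRNAs, so their error is the variation of the siRNA effect between lines and not that of cultures of 1 line. Of the 10 probes, 5 differed between KON and HSC-3, 5 between Ca9-22 and HSC-3, and 2 between Ca9-22 and KON. Over all probes that passed, the shares were 36.2%, 36.6% and 33.2%. Counts over 10 probes do not set the FGF genes apart from those shares, and the values are given gene by gene.

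HSC-3 was set apart by high FGFR3 and FGFBP1 and low FGFRL1 and FGFR1. FGFR3, by A_23_P500501, was 9.40-fold higher in HSC-3 than in KON (limma adjusted p = 0.0210) and 6.68-fold higher than in Ca9-22 (limma adjusted p = 0.0311) over both siRNAs. The difference from KON was 20.6-fold after siCtrl and 4.28-fold after siDLEU1-2, and that from Ca9-22 was 14.8-fold and 3.02-fold. For the other FGFR3 probe these contrasts did not pass, and the order of the lines changed with the siRNA, since after siDLEU1-2 its signal was higher in Ca9-22 than in HSC-3. FGFBP1 was 3.06-fold higher in HSC-3 than in KON (limma adjusted p = 0.0271) and 6.62-fold higher than in Ca9-22 (limma adjusted p = 0.00930). Its difference from KON was 4.42-fold after siCtrl and 2.13-fold after siDLEU1-2. FGF11 was 5.65-fold higher in HSC-3 than in KON (limma adjusted p = 0.0149), and its 2.60-fold difference from Ca9-22 did not pass (limma adjusted p = 0.0564), though it did under 4 alternatives: median centering, normexp, the detection floor and the filter asking for all 6 arrays. That difference was 4.25-fold after siCtrl and 1.59-fold after siDLEU1-2. FGFRL1 was 7.55-fold higher in KON than in HSC-3 (limma adjusted p = 0.00682) and 6.56-fold higher in Ca9-22 than in HSC-3 (limma adjusted p = 0.00653), and KON and Ca9-22 were not separated (limma adjusted p = 0.588). Between KON and HSC-3 it differed 10.3-fold after siCtrl and 5.54-fold after siDLEU1-2. FGFR1 was higher in KON (limma adjusted p = 0.0168) and in Ca9-22 (limma adjusted p = 0.0381) than in HSC-3, whose siCtrl spot was not well above background. With that spot set to the detection floor, the differences were 2.06 and 1.09 on the log2 scale (limma adjusted p = 0.00441 and 0.0115). After siDLEU1-2, where all spots were well above background, FGFR1 was 4.39-fold higher in KON and 2.35-fold higher in Ca9-22 than in HSC-3. With KON left out, the FGFR3 and FGFR1 differences between Ca9-22 and HSC-3 no longer passed (limma adjusted p = 0.0526 and 0.0572), and with quantile normalization that of FGFR1 did not pass either (0.0507). With no filter on dim probes, the calls of FGFR3 (limma adjusted p = 0.0610 against KON and 0.0846 against Ca9-22), of FGFBP1 between KON and HSC-3 (0.0769) and of FGFR1 between Ca9-22 and HSC-3 (0.101) were lost.

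Ca9-22 was set apart by FGFR4 and, less firmly, by FGFR2. FGFR4 was 2.48-fold higher in Ca9-22 than in HSC-3 (limma adjusted p = 0.00932) and 2.81-fold higher than in KON (limma adjusted p = 0.00900), while HSC-3 and KON were not separated (limma adjusted p = 0.435). FGFR4 signals were low in HSC-3 and KON, and the size of these differences depends on the background correction. On the log2 scale they were 1.31 and 1.49, and 0.63 and 0.76 with normexp (limma adjusted p = 0.0173 and 0.0104). FGFR2, by A_23_P202334, was 3.15-fold higher in Ca9-22 than in KON (limma adjusted p = 0.0464), a call lost when no filter was used (limma adjusted p = 0.117) and with the filter of 3 or more of the 6 arrays (0.0538). It was 2.26-fold after siCtrl and 4.40-fold after siDLEU1-2. For the second FGFR2 probe the same contrast was 1.61-fold (limma adjusted p = 0.340). Against HSC-3, the FGFR2 probes were 2.94-fold and 3.31-fold higher in Ca9-22 and did not pass (limma adjusted p = 0.0507 and 0.0554). These averages rest mostly on the siDLEU1-2 arrays, with 5.44-fold and 6.79-fold there against 1.59-fold and 1.61-fold after siCtrl. Both passed with normexp (limma adjusted p = 0.0290 and 0.0298), with the detection floor (0.0440 and 0.0482) and with the filter asking for all 6 arrays (0.0357 and 0.0393), and A_23_P202334 also with quantile normalization (0.0409). FRS2 had no difference between lines that passed.

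**Figure D3:**
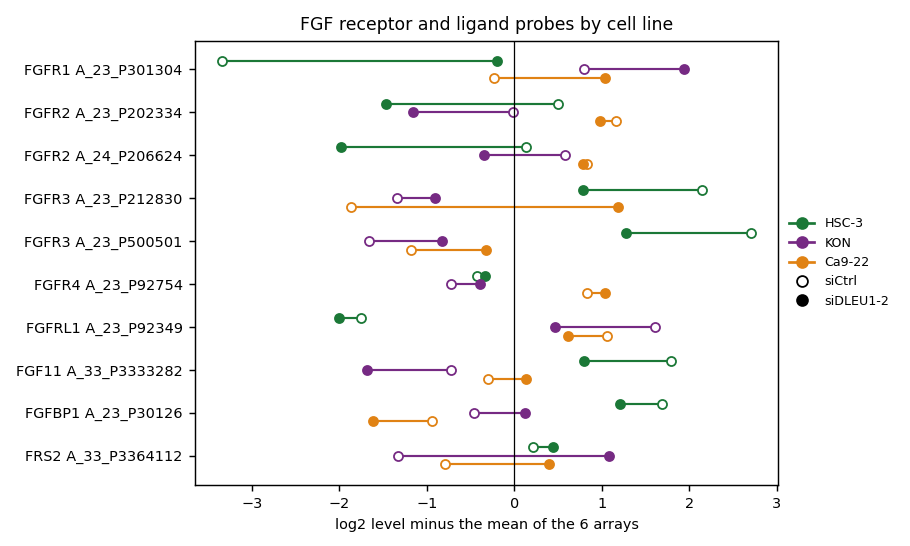
Level of the 10 probes that passed the filter, as log2 signal minus the mean of the probe over the 6 arrays (x axis), by cell line (color) and siRNA (open siCtrl, filled siDLEU1-2). Each point is 1 array. HSC-3 lies highest for FGFR3 A_23_P500501, FGF11 and FGFBP1 and lowest for FGFRL1, and Ca9-22 lies highest for FGFR4 and, by both arrays, for FGFR2.

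The genes whose pattern over the 6 arrays was closest to that of a receptor or carrier are named by Pearson's r between probes, the 3 highest for each, as a description without a test, since the points share the 3 lines. For FGFR1 A_23_P301304, whose lowest point is the dim siCtrl spot of HSC-3, these were ATG9A, LYPD6 and ARL14, with r of 0.997, 0.996 and 0.995. FGFR2 A_23_P202334 was closest to MKLN1, AQP7P3 and FGF1, the acidic FGF ligand, with r of 0.997, 0.992 and 0.990. For FGFR3 A_23_P500501 these were CNOT6, RTN4RL2 and SRSF4, with r of 0.996, 0.986 and 0.985. FGFBP1 was closest to RPL35A, DDB2 and APTX, with r of 0.998, 0.996 and 0.995.

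Beyond the 10 genes, the other genes of the pathway were counted in 5 lists by the leading probe of each gene, that is its probe of highest mean level among those that passed. Of the 19 other FGF ligands on the array, 2 passed the filter, FGF1 and FGF7, and neither was called. Their mean log2 fold changes were -1.06 for FGF1 and -0.60 for FGF7 (limma adjusted p = 0.0694 and 0.0970). The other FGF1 probe that passed was at -0.14 (limma adjusted p = 0.548). Of the 26 coreceptor and heparan sulfate genes, 18 passed, 1 was called higher and 1 lower. Of the 25 adaptors and effectors, 23 passed, 1 was called higher and 1 lower. Of the 19 genes induced by ERK, 17 passed, 1 was called higher and 4 lower. Of the 6 regulators of FGFR2 splicing, all 6 passed, 1 was called higher and 0 lower. Over all probes, 3.98% were called higher and 4.52% lower. The median mean log2 fold changes were -0.83, 0.26, 0.10, -0.32 and 0.12 in that order, against 0.01 over all probes.

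Among coreceptors, SULF2, which removes sulfate from heparan sulfate and so changes FGF binding, rose in each line, with log2 fold changes of 1.93, 2.22 and 1.19 (limma adjusted p = 0.0305). SDC1, syndecan-1, a heparan sulfate proteoglycan of epithelial cells, fell, with log2 fold changes of -1.72, -1.89 and -2.11 (limma adjusted p = 0.0227). HS2ST1, which adds sulfate to heparan sulfate, had a probe with a mean log2 fold change of -1.60 (limma adjusted p = 0.0396), while its leading probe was at 0.49. Among adaptors, the ubiquitin ligase CBL rose by 0.89 (limma adjusted p = 0.0495) and the PI3K catalytic subunit PIK3CA fell by 1.54 (limma adjusted p = 0.0305). GAB2, a docking protein that works beside FRS2, was over 2-fold higher in each line, by 5.97, 1.34 and 4.74, and missed the test (limma adjusted p = 0.0665).

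Of the genes induced by ERK, the transcription factor EGR1 fell by 1.87 (limma adjusted p = 0.0329). ETV5, another one, fell too (limma adjusted p = 0.0388), with a dim spot in HSC-3 after siDLEU1-2. With that spot at the detection floor, a set value and not a measured one, its mean log2 fold change was -1.87 (limma adjusted p = 0.0207). In HSC-3 the ETV5 probe passed the filter through the siCtrl array alone. A filter asking for every array to be well above background leaves it out. SPRED1, a feedback inhibitor of RAS signaling, fell by 1.49 (limma adjusted p = 0.0247) and DUSP6, an ERK phosphatase, fell by 1.09 (limma adjusted p = 0.0346). DUSP5, a nuclear ERK phosphatase, rose by 2.14, and by close to that in each line (SD 0.16, limma adjusted p = 0.0227). In the splicing list, RBM47 rose by 1.43 (limma adjusted p = 0.0451), while its other probe, at 1.63, did not pass (limma adjusted p = 0.0522), and ESRP1, which keeps FGFR2 in its epithelial form, was at -0.44 (limma adjusted p = 0.339). Of the 10 calls over the 5 lists, 0 were left without HSC-3 or without KON, and 2, DUSP5 and SULF2, without Ca9-22.

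**Figure D4:**
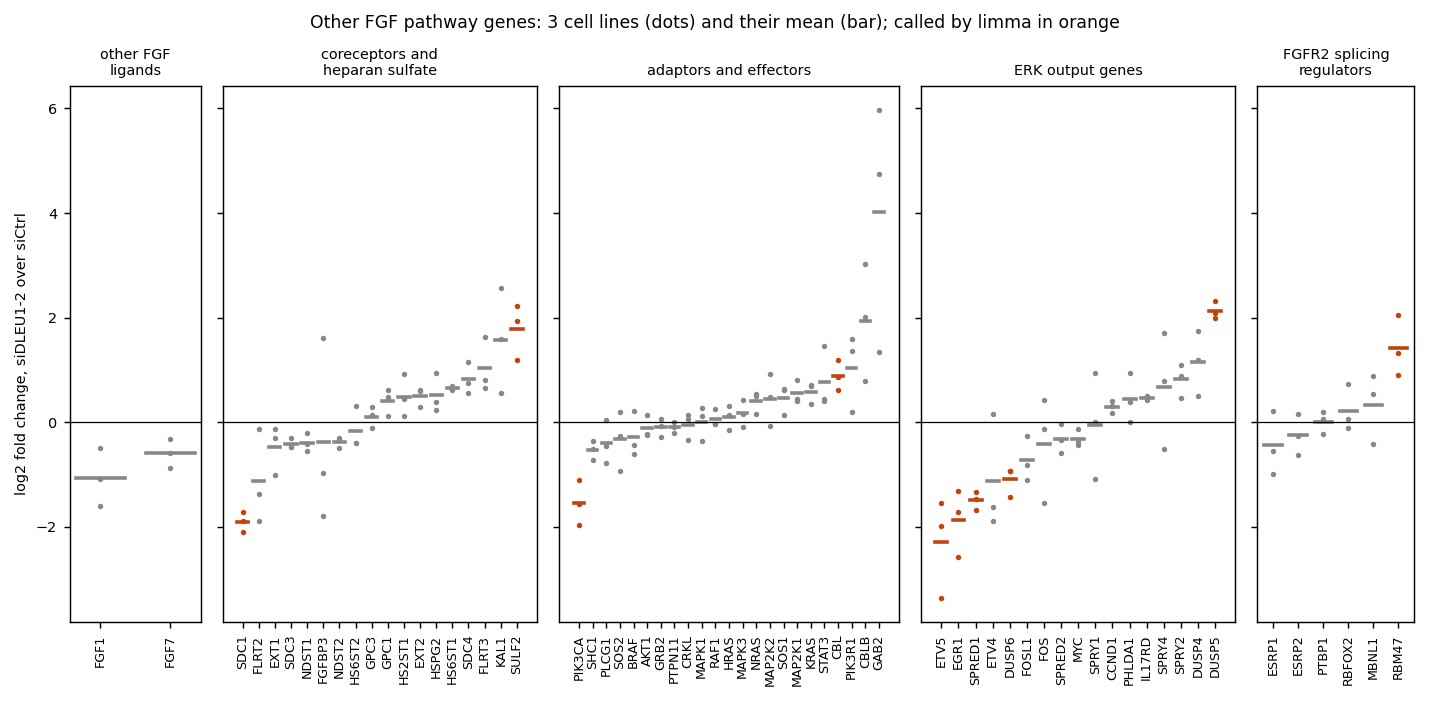
Log2 fold change of siDLEU1-2 over siCtrl (y axis) for the genes of 5 FGF pathway lists (x axis). Dots are the 3 cell lines, bars their mean, and orange marks genes called by limma at an adjusted p below 0.05. The called genes of the ERK list are DUSP5 above 0 and DUSP6, SPRED1, ETV5 and EGR1 below it.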

How the data were processed

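The authors deposited the scanner output of Agilent Feature Extraction 10.7 for 6 one-color arrays, in which each spot has a processed intensity, background-subtracted on a linear scale and not normalized between arrays. The study's methods name GeneSpring GX for its own analysis. The series table repeats that intensity in rounded form, differing by up to 0.497%. From these, log2 values were computed with the 75th percentile of each array subtracted. Controls and outlier spots were left out, and 55 probes had no usable spot on some array. A probe passed if each line had 1 or more of its 2 arrays with at least 50% of the probe's spots well above background (19956 of 50599). limma 3.58.1 in R 4.3.3 was fitted to the siRNA with the cell line as a block, with two-sided p-values adjusted by the Benjamini-Hochberg method over those probes and a threshold of 0.05. The same fit gave the line contrasts. Arrays of a line deviated together (r of 0.83, 0.81 and 0.82), and the labels pair them by line. The code was tested on simulated data. Arrays carry no counts, so their number limits the precision. Over 574 probes with repeated spots, the median spot SD within an array was 0.06 to 0.07 (log2), a technical error only. Alternatives were quantile normalization, median centering, normexp with an offset of 50, the deposited series table, other filters, a detection floor, the methods' t-test, a fit with no block, leaving out each line, averaging a gene's probes and a limit of 3-fold. The filter of at least 3 arrays was chosen after seeing the data. A slide block was not fitted, since all 6 arrays share 1 scan. Named were every probe of the 10 genes, listed pathway genes called or over 2-fold in all lines, DLEU1 and the 3 most alike genes. ESRP1 was named beside the rule after its values were seen, and FGF7 was also named beside the rule. Members and lists were chosen with earlier results of these data known.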

Additional observations from a re-analysis of the deposited data

Results flagged for a closer look

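The following probes moved in opposite directions in different cell lines, and the difference between lines was not tested, because each line has 1 array per siRNA. Log2 fold changes of FGFR3 probe A_23_P212830 spanned 4.40 from HSC-3 to Ca9-22, where the siCtrl spot was not well above background, and 3.87 with that spot set to the detection floor. Those of FGFR3 probe A_23_P500501 spanned 2.29. Those of FGF11 spanned 1.42, with Ca9-22 above 0 and the other lines below. Those of FGFBP1 spanned 1.26, with KON above 0 and the other lines below.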

How the results depend on the processing

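Over all probes, limma called 1697 probes with the line as a block, 0 without the replicate block and 0 by the methods' t-test. The count was 0 with no filter on dim probes, 844 with the filter of at least 3 of 6 arrays, and between 0 (HSC-3 or KON left out) and 244 (Ca9-22 left out) with each line left out. The 10 FGF probes had 0 calls, and 0 without the replicate block, but 1, FGFR1, with normexp (mean log2 fold change 0.68) or with dim values raised to the floor (1.13). Of the pathway genes, 10 were called, 17 with normexp, 0 with no filter, 0 without the replicate block, 5 with the filter of at least 3 arrays, and between 0 and 2 with each line left out. Probes over 2-fold in all lines numbered 874, 399 with normexp, 258 at a 3-fold threshold, and between 1307 and 1377 with each line left out, which leaves fewer lines to satisfy (1313 without KON). Member calls for Ca9-22 against HSC-3 were 8 with normexp or the floor, and 3 with no filter or with KON left out. With no filter, KON against HSC-3 had 3 and Ca9-22 against KON 1, and the latter also had 1 with the filter of at least 3 arrays. With each line left out, mean log2 fold changes reversed for FGFR3 A_23_P500501 (-0.30 without Ca9-22, -0.29 without KON, 0.84 without HSC-3), FGFR3 A_23_P212830 (-0.46 without Ca9-22 to 1.74 without HSC-3) and FGFBP1 (-0.57 without KON to 0.056 without Ca9-22). The cause was not tested. Of 118 values of single FGF probes, the other 112 kept their direction and their side of the threshold. Dim spots limit FGF2, FGF18, FGFR1 and ETV5 in HSC-3, FGF2 A_33_P3379886 in KON, and FGF2, FGF18 and FGFR3 A_23_P212830 in Ca9-22. They also limit the FGFR1 and FGFR2 probes that did not pass.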
